A study of Homo sapiens with 21 samples.

Results

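The mitochondrially encoded mRNAs examined here are 10 transcripts of the human mitochondrial genome: MT-ND1, MT-ND2, MT-ND3, MT-ND4, MT-ND5, MT-CYB, MT-CO1, MT-CO2 and MT-ATP6, which are read from the heavy strand, and MT-ND6, the only mRNA read from the light strand. They were taken by symbol from the gene identifiers of 4 expression tables and were proposed with their values in these libraries in view, so that their levels and differences are given as a description with no p value. The 10 members stand among 20970 genes found in any table and among 13 mitochondrially encoded mRNAs, all 10 being present in all 4 tables. The study asked how METTL4, an adenine methyltransferase, and the long non-coding RNA RP11-390F4.3 act on gene expression under low oxygen, in FADU cells (a head and neck carcinoma line) and BFTC909 cells (a urothelial carcinoma line of the renal pelvis). It produced 21 RNA-seq libraries, each from cells kept 18 h in 18% O2 (normoxia) or 1% O2 (hypoxia).

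In each line 3 groups of 2 libraries carried a silencing construct: scrambled control (Scr-si) in normoxia, Scr-si in hypoxia, and METTL4-si in hypoxia. The labels write si for these constructs, whereas the study's methods describe lentiviral short-hairpin vectors, and all 12 libraries, controls included, carry one. A further 6 FADU libraries, all in normoxia, held a control (n = 2), METTL4 overexpression (METTL4-OE, n = 2) and RP11-390F4.3 overexpression (n = 2). The last 3 FADU libraries, all in hypoxia, held a wild-type CRISPR control (n = 1) and cells whose METTL4 had its catalytic DPPW motif mutated by prime editing (2 clones, 1 library each). No label says whether replicates were separate cultures, so the spread between them may be technical.

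The mitochondrial genome is a small circle whose strands are transcribed as long precursors from promoters in the control region. The heavy strand gives both ribosomal RNAs, most tRNAs and all mRNAs but one, and the light strand gives MT-ND6 and a few tRNAs. tRNAs between the coding parts are cut out and release the mRNAs. Those of the heavy strand get short poly(A) tails and are held by an LRPPRC and SLIRP complex. Levels of mRNAs from 1 precursor can therefore differ through their stability. POLRMT is the RNA polymerase, TFAM and TFB2M start transcription and TEFM helps it to extend. The mRNAs encode subunits of the respiratory chain: the ND proteins are membrane subunits of complex I, MT-CYB is the cytochrome b of complex III, MT-CO1 and MT-CO2 form the catalytic core of complex IV (cytochrome c oxidase), and MT-ATP6 is the proton channel subunit of ATP synthase. In hypoxia, cells commonly lower oxidative phosphorylation and raise glycolysis.

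Because the contrast between strands carries most of what follows, sequences are shown from the GRCh37 mitochondrial genome (chrM, 16569 bases, + strand unless marked). The first is the control region ahead of the first heavy-strand gene, MT-TF, whose first bases are in capitals.
Promoter region (chrM:387-586, heavy-strand mRNA sense, + strand): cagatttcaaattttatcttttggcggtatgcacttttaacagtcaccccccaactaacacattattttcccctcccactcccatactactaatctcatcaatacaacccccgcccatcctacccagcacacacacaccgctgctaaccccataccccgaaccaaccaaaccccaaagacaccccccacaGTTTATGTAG
The starts of MT-ND6 and of the heavy-strand members that differed least and most in FADU hypoxia are shown with their first codon in capitals.
MT-ND6 (chrM:14614-14673, − strand): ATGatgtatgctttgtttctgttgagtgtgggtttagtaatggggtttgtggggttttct
MT-CO1 (chrM:5904-5963, heavy-strand mRNA sense, + strand): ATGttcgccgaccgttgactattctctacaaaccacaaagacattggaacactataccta
MT-ND3 (chrM:10059-10118, heavy-strand mRNA sense, + strand): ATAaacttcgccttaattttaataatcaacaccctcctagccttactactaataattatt
The last shows where MT-ND5 and MT-ND6 meet tail to tail, the capitals being the stop codon of MT-ND5 followed by that of MT-ND6 on the other strand.
Junction (chrM:14119-14178, heavy-strand mRNA sense, + strand): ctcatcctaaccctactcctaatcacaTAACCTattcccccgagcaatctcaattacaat
Both genes share 0 bases. In its own sense MT-ND6 (chrM:14149-14673, − strand, 525 bases) held 35.6% G and 7.05% C, whereas the heavy-strand members held 9.50% to 16.2% G and 29.5% to 36.0% C. The heavy-strand members run along + strand in the order MT-ND1 (chrM:3307-4262), MT-ND2 (chrM:4470-5511), MT-CO1 (chrM:5904-7445), MT-CO2 (chrM:7586-8269), MT-ATP6 (chrM:8527-9207), MT-ND3 (chrM:10059-10404), MT-ND4 (chrM:10760-12137), MT-ND5 (chrM:12337-14148) and MT-CYB (chrM:14747-15887). Each is a single exon, from 346 bases (MT-ND3) to 1812 bases (MT-ND5) long.

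The libraries held 17781791 to 25410656 reads on genes, and the 13 mitochondrial mRNAs took 3.25% (Wilson 95% interval 3.24% to 3.26%) to 7.10% (7.09% to 7.11%) of them. Such intervals cover counting error only. It is small here, since the least covered member had 2241 reads in its lowest library, so the spread between libraries limits the comparisons. All values are TMM-normalized CPM (counts scaled to the library's total and corrected for its composition by the trimmed mean of M-values), here called normalized counts. The label checks were mixed. METTL4 was 26.6 and 25.3 in FADU hypoxia and 24.2 and 27.1 in the FADU libraries labelled METTL4-si (log2 difference -0.017, SE 0.088), so that this check did not show a knockdown of its mRNA, whereas in BFTC909 it was 19.0 and 15.6 with Scr-si and 14.4 and 12.2 with METTL4-si (log2 difference -0.36, SE 0.13). In the overexpression table it was 35.4 and 32.7 in control and 158 and 139 in METTL4-OE. CA9, a gene induced by hypoxia, was 2.33 and 2.55 in FADU normoxia, 31.0 and 37.8 in hypoxia and 1.87 and 2.22 with METTL4-si. Markers of another cell type stood out in 3 libraries: the first normoxia replicate of FADU, the first METTL4-si replicate of FADU, and the second METTL4-si replicate of BFTC909. Of 9 breast luminal markers, 7 were in the FADU table, and their summed level was 183 and 767 in the first and second of these libraries against a median of 34.9 over the table. In BFTC909, 2 of the 9 were in the table, at 249 in METTL4-si replicate 2 against a median of 3.53. Markers of the labelled cell type were raised in that library too. Its epithelial markers summed to 1122 against a median of 57.4, and its urothelial markers to 1243 against 80.0. In FADU, 2 of 7 fibroblast markers summed to 116 in METTL4-si replicate 1 and 25.6 in normoxia replicate 1, against a median of 5.47. Results are given with and without these libraries. Of the labelled cell types, 9 of 9 epithelial markers summed to 3726 to 7071 in the FADU knockdown libraries. They summed to 4621 to 6499 in the FADU overexpression libraries and to 2193 to 3440 in the CRISPR control and mutant clones. The immune and endothelial markers found summed to at most 13.8 in any library of the 4 tables. BFTC909 libraries held 4 of 9 epithelial markers in the table at a summed median of 57.4, while 5 of 7 fibroblast markers summed to 1019.5 to 4652, and 4 of 11 urothelial markers to a median of 80.0, so most markers of the labelled cell type were absent. Their part in the results was not tested.

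By the criterion given below, 7 of the 10 mitochondrial mRNAs were called lower in FADU hypoxia than in normoxia. Of all genes tested 12.5% were called lower there, and nothing is read from the members' count. The light-strand mRNA differed most. MT-ND6 was 831 and 728 normalized counts in the normoxia libraries and 118 and 102 in the hypoxia libraries, a log2 difference of -2.81 (SE 0.11), or 7.03-fold lower. The 4 values formed separate ranges, and both hypoxia libraries lay below any other FADU library of that table. In bulk libraries a change in the mixture of cells and a change of RNA per cell cannot be told apart.

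Among the heavy-strand mRNAs of complex I, the short ones differed most. MT-ND3, the smallest of them, was 1181 and 1001 in normoxia and 384 and 411 in hypoxia (log2 difference -1.45, SE 0.096). MT-ND2 was 5310.4 and 4541 in normoxia against 2011 and 1947 (-1.31, SE 0.11), and MT-ND1 was 3755 and 3208 against 1811 and 1841 (-0.93, SE 0.11). No hypoxia library of these 3 genes reached the range of normoxia. MT-ND5, the longest, was 5784 and 4770.3 in normoxia and 4563 and 4166 in hypoxia (-0.27, SE 0.13), without overlap but not called, except without normoxia replicate 2 (-0.41). MT-ND4 was 9539 and 8805 in normoxia and 8877 and 8652 in hypoxia (-0.065, SE 0.14), and its libraries overlapped between the groups, so that no difference beyond the spread was seen for it.

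The mRNAs of the other complexes were lower too, apart from MT-CO1. MT-ATP6, of ATP synthase, was 5123 and 4277 in normoxia and 1872 and 1893 in hypoxia (-1.31, SE 0.12). MT-CYB, of complex III, was 3757 and 2998 in normoxia and 2105 and 2074 in hypoxia (-0.68, SE 0.13). In complex IV, MT-CO2 was 5846 and 5061 in normoxia and 3559 and 3452 in hypoxia (-0.63, SE 0.12), while MT-CO1, which binds the oxygen-reducing haem and copper, was 9783 and 9037 in normoxia and 9296 and 9138 in hypoxia (-0.029, SE 0.13). The sign for MT-CO1 turned when libraries were centred on their median gene and when some single libraries were left out, so it has no direction here. Calls took the study's thresholds, at least 1.3-fold and an unadjusted p under 0.05, with p from limma here where the study used edgeR. By this criterion 7 of the 10 members were called lower and none higher, where 12.5% of all genes tested were called lower and 12.4% higher. Since these values chose the members, nothing is read from that count. As a share of all reads on genes, the 13 mitochondrial mRNAs took 5.69 and 4.88% in normoxia, 3.78 and 3.65% in hypoxia and 6.47 and 7.10% with METTL4-si. The median over the 9 heavy-strand members was -0.68 on the log2 scale, against -0.026 over all genes. Without the libraries with raised markers of another cell type, 1 normoxia library was left, its spread being taken from the other groups, and the same median was -0.53 and the MT-ND6 difference -2.72.

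**Figure D1:**
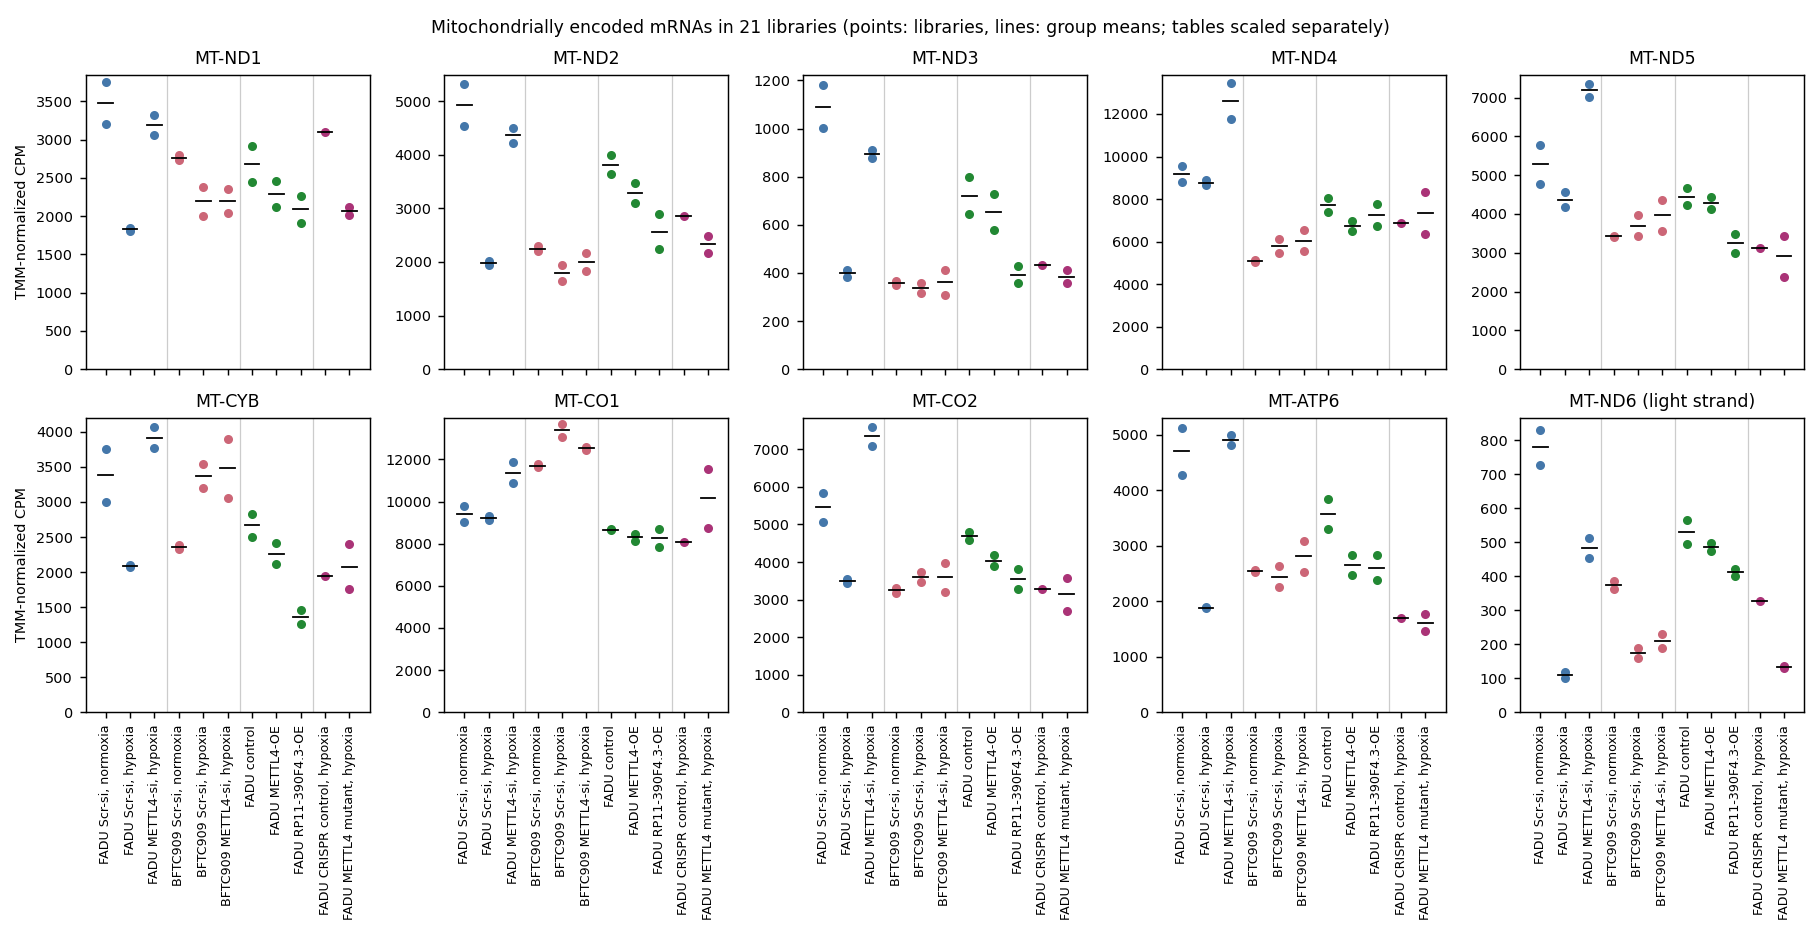
Level of each member, in TMM-normalized CPM on a linear axis from 0, in each of the 21 libraries, with 1 point a library, a line at each group mean and the groups side by side. MT-ND6 falls from 831 and 728 in FADU normoxia to 118 and 102 in hypoxia, whereas MT-CO1 stays between 9037 and 11877 over the 6 libraries of that table.

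With METTL4-si in hypoxia, 9 members were called higher in FADU cells than with Scr-si in hypoxia, where 15.2% of all genes tested were called higher and 16.8% lower. Of the calls over all genes 47.6% were higher, or 69.8% where libraries were rescaled to genes outside the mitochondrial genome. MT-ND6 was 118 and 102 with Scr-si and 513 and 453 with METTL4-si, a log2 difference of 2.13 (SE 0.11). MT-ATP6 was 1872 and 1893 with Scr-si and 4809 and 4999 with METTL4-si (1.38, SE 0.12). Both pairs of libraries lay apart for these genes.

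In complex I, MT-ND3 was 878 and 910.1 with METTL4-si (1.17, SE 0.096 against Scr-si), MT-ND2 4222 and 4500.1 (1.14, SE 0.11) and MT-ND1 3067 and 3323 (0.81, SE 0.11). The long transcripts differed less. MT-ND5 was 7024 and 7344 (0.72, SE 0.13) and MT-ND4 11787 and 13435 (0.52, SE 0.14), the call for MT-ND4 being lost in 3 of 15 alternative settings. MT-CO2 was 7096 and 7600.0 (1.07, SE 0.12), MT-CYB 4062 and 3768 (0.90, SE 0.13) and MT-CO1 10861 and 11877 (0.30, SE 0.13), which alone was not called. Without FADU METTL4-si replicate 1 and normoxia replicate 1, the heavy-strand median was 0.86 in place of 0.90, the MT-ND6 difference was 2.04, and 9 members were called. The 2 comparisons share the hypoxia Scr-si libraries, so opposite signs in them are not independent of each other.

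The METTL4-si libraries in hypoxia were therefore also set beside normoxia directly. MT-ND6 differed from normoxia by -0.69 (SE 0.11) on the log2 scale. The heavy-strand members lay from -0.28 to 0.46, of which MT-ND4 (0.46, SE 0.14), MT-ND5 (0.45, SE 0.13) and MT-CO2 (0.43, SE 0.12) were called higher. In all, 4 members were called in either direction, where 12.1% of all genes tested were called higher and 15.2% lower, 44.4% of the calls being higher, or 72.2% after the rescaling. The higher calls were not stable. That of MT-ND4 changed in 6 of 15 alternative settings, and those of MT-ND5 and MT-CO2 in 2 each. Without normoxia replicate 2, MT-ND5 (0.31) and MT-CO2 (0.33) were under 1.3-fold, MT-ND4 was at 0.40 and MT-ND3 at -0.40.

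In BFTC909 cells hypoxia went with a lower light-strand mRNA and little difference in the heavy-strand mRNAs. MT-ND6 was 387 and 362 in normoxia and 189 and 159 in hypoxia, a log2 difference of -1.10 (SE 0.12), or 2.15-fold lower. MT-CYB was 2322 and 2392 in normoxia and 3543 and 3198 in hypoxia (0.51, SE 0.12), higher in both hypoxia libraries. These were the 2 members called, beside 19.2% of all genes called lower and 19.5% higher, a split of 50.3% higher that became 61.0% where libraries were centred on their median gene.

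The complex I members near the promoter end were a little lower in hypoxia: MT-ND1 was 2729 and 2799.7 in normoxia and 2381 and 2006 in hypoxia (-0.34, SE 0.11), and MT-ND2 was 2200.0 and 2293 in normoxia and 1948 and 1636 in hypoxia (-0.33, SE 0.11). Their libraries did not overlap between the groups, but neither passed the criterion. MT-CO1 (0.19, SE 0.10), MT-ND4 (0.18, SE 0.11), MT-CO2 (0.15, SE 0.11), MT-ND5 (0.11, SE 0.12), MT-ATP6 (-0.064, SE 0.12) and MT-ND3 (-0.093, SE 0.13) did not pass it either. The 13 mRNAs took 3.79 and 3.86% of the reads on genes in normoxia and 4.23 and 3.84% in hypoxia. Without hypoxia replicate 1, 4 members were called, and the heavy-strand median was -0.0029 in place of 0.11, with -0.022 over all genes.

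METTL4-si in BFTC909 hypoxia left no member called against Scr-si by limma or by edgeR, where 15.7% of all genes tested were called higher and 12.9% lower, 54.9% of the calls being higher (39.2% after median centring and 69.8% after rescaling). MT-ND6 was 189 and 159 with Scr-si and 189 and 231 with METTL4-si (0.27, SE 0.12). Without replicate 2 of METTL4-si, the library with raised markers of another cell type and of the labelled one, the difference was 0.12. Without Scr-si replicate 1 (0.39) or METTL4-si replicate 1 (0.41) MT-ND6 was called higher. The heavy-strand members lay between -0.10 (MT-CO1) and 0.20 (MT-ATP6). Set beside normoxia, the METTL4-si libraries had MT-ND6 at -0.84 (SE 0.12) and MT-CYB at 0.55 (SE 0.12), the 2 members called, where 25.6% of all genes tested were called higher and 23.7% lower. Without METTL4-si replicate 2, MT-CYB was at 0.377 and no longer called, MT-ND1 was called lower instead (-0.44 in place of -0.34), and MT-ND6 was at -0.98 and still called.

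**Figure D2:**
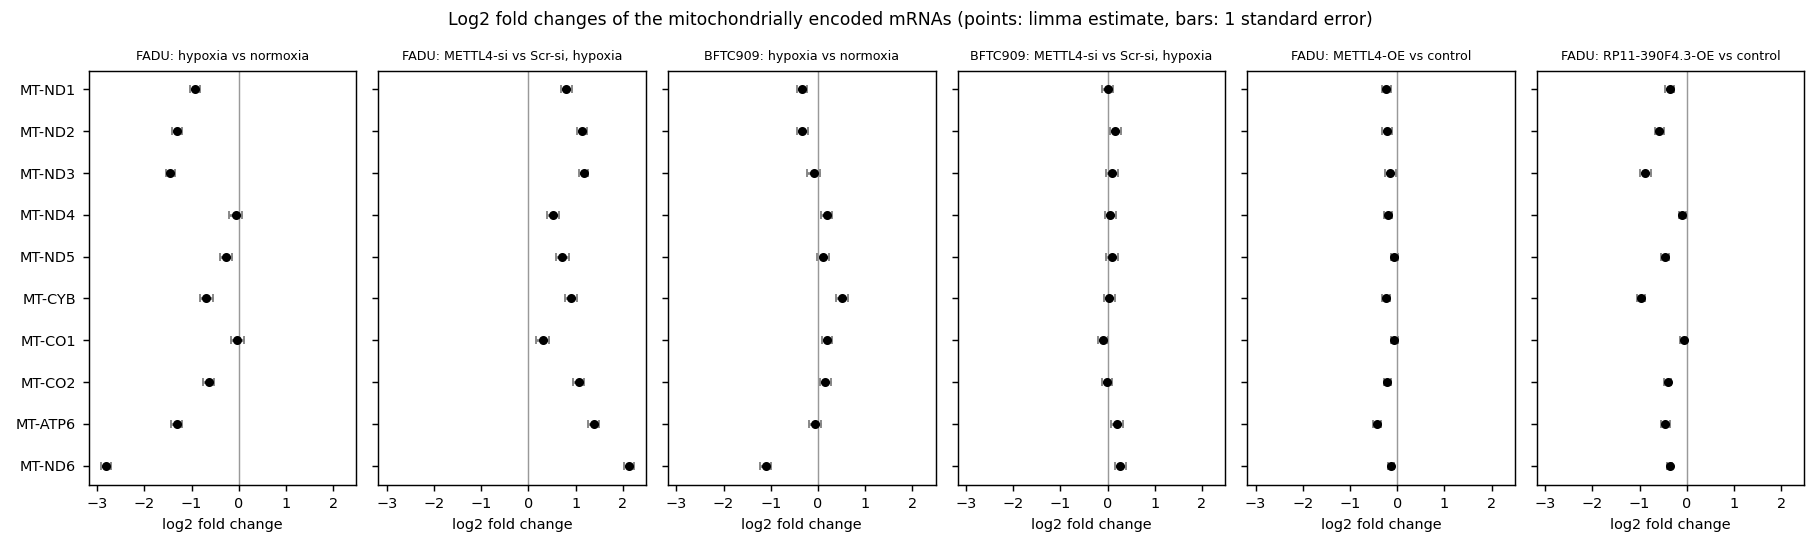
Log2 difference of each member in 6 comparisons, 1 panel each, with bars for 1 standard error of the limma fit. MT-ND6 lies lowest in FADU hypoxia (-2.81) and in BFTC909 hypoxia (-1.10), and highest with METTL4-si in FADU (2.13).

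The difference between lines, FADU minus BFTC909, was taken per member with its standard error and no test, since the members were chosen on these values. For hypoxia against normoxia it was -1.71 (SE 0.16) for MT-ND6, -1.36 (SE 0.16) for MT-ND3 and -0.22 (SE 0.17) for MT-CO1, the ends of the range. For METTL4-si against Scr-si it ran from 0.40 (SE 0.17) for MT-CO1 to 1.86 (SE 0.16) for MT-ND6. The 2 lines' tables were normalized apart, which does not touch differences within each table. Across the 9 heavy-strand members, the hypoxia differences of the lines had a Pearson correlation of 0.595 and a Spearman correlation of 0.667, and 4 of 9 had the same sign in both. The members lie on 1 precursor and share libraries, so this is a description.

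Overexpression was done in normoxia. In METTL4-OE cells 1 member, MT-ATP6, was called lower, at 3836 and 3309.6 in control and 2838 and 2470.1 in METTL4-OE (-0.43, SE 0.091), where 8.3% of all genes tested were called higher and 11.1% lower. MT-ND6 was 566 and 497 in control and 497 and 474 in METTL4-OE (-0.13, SE 0.058). The other 8 heavy-strand members lay between -0.24 and -0.057, all below control in the mean. Without control replicate 1, or without METTL4-OE replicate 2, 0 members were called.

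With RP11-390F4.3 overexpression 6 heavy-strand members were called lower than in control, where 16.8% of all genes tested were called higher and 12.8% lower, and here a heavy-strand mRNA stood lowest. Of the calls over all genes 56.7% were higher (41.0% after median centring and 40.4% after rescaling). MT-CYB was 2824 and 2504 in control and 1261 and 1463 with RP11-390F4.3 (-0.97, SE 0.081). MT-ND3 was 797 and 644 in control and 356 and 427 with RP11-390F4.3 (-0.88, SE 0.11), and MT-ND2 was 3992 and 3630.3 in control and 2240.1 and 2893 with RP11-390F4.3 (-0.58, SE 0.098). MT-ATP6 (-0.46, SE 0.091), MT-ND5 (-0.46, SE 0.076) and MT-CO2 (-0.41, SE 0.073) were the others called. The count was 4 without control replicate 1, where MT-ATP6 (-0.35) and MT-CO2 (-0.37) were not called. It was also 4 without the first RP11-390F4.3 library, where MT-ATP6 (-0.33), MT-CO2 (-0.30) and MT-ND5 (-0.35) were not called and MT-ND6 was. MT-ND6 was 566 and 497 in control and 422 and 402 with RP11-390F4.3 (-0.36, SE 0.058), without overlap but under the criterion, as was MT-ND1 (-0.36, SE 0.093). The scaling decided both calls: after median centring and after rescaling MT-ND6 (-0.45 and -0.46) and MT-ND1 (-0.44 and -0.46) were called lower, giving 8 members, and edgeR called MT-ND6 as well. MT-ND4 (-0.091, SE 0.081) and MT-CO1 (-0.068, SE 0.073) were close to control. Against METTL4-OE, MT-ND3 (-0.73, SE 0.11), MT-CYB (-0.73, SE 0.081) and MT-ND5 (-0.40, SE 0.076) were called lower, where 18.8% of all genes tested were called higher and 13.6% lower, 57.9% of the calls being higher (43.0% after median centring). The call of MT-ND5 was lost without METTL4-OE replicate 1 (-0.35) or without the first RP11-390F4.3 library (-0.30), and MT-ND2 (-0.37, SE 0.098) was called in 4 of 13 alternative settings. RP11-390F4.3 itself was 12.9 and 13.4 in control, 21.8 and 21.7 in METTL4-OE and 23.9 and 25.1 in its own overexpression. Its 2 columns carry another name in the table and were matched to this group because every other column of the table names control or METTL4.

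In hypoxia the METTL4-DPPW mutant clones had a lower light-strand mRNA than the CRISPR control. MT-ND6 was 326 in the control and 132 and 137 in clones 1 and 2, log2 ratios of -1.30 and -1.24. With 1 control library there is no replicate check and no test. Of the heavy-strand members, MT-ND1 was lower in both, with 3105 in the control and 2120.4 and 2014 in clones 1 and 2 (log2 ratios -0.55 and -0.62), and MT-ND2 had 2863 against 2491 and 2164 (-0.20 and -0.40). MT-CO1 had 8062 against 11551 and 8753, higher in both (0.52 and 0.12). For MT-ND4, MT-ND5, MT-CYB, MT-CO2 and MT-ATP6 the clones lay on opposite sides of the control, with log2 ratios in clone 1 from 0.052 to 0.31 and in clone 2 from -0.39 to -0.11. MT-ND3 had ratios of -0.067 and -0.28. Past 1.3-fold lower lay 2 members in clone 1, beside 16.9% of all genes (14.4% were past it higher, MT-CO1 among them), and 4 in clone 2, beside 17.5% (14.1% higher). Nuclear-retained RNAs also differed between these libraries: MALAT1 was 21035 in the CRISPR control against 10088 and 8689.6 in clones 1 and 2, and NEAT1 was 3099 in the control against 561 and 556. MALAT1 also differed between groups of the knockdown tables, where it was highest with METTL4-si. MALAT1 was 17177 and 17840 in FADU normoxia, 22347 and 22664 in hypoxia and 25126 and 28628 with METTL4-si. In BFTC909 it was 13891 and 13691 in normoxia, 14275 and 13619 in hypoxia and 20893 and 20789 with METTL4-si. NEAT1 was 5966 and 6335 in FADU hypoxia and 3714 and 4167 with METTL4-si. In BFTC909 NEAT1 was 2464 and 2396 in hypoxia and 3684 and 3564 with METTL4-si. The part of these RNAs in the members' values was not tested.

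A ratio within a library is free of the scaling between libraries. MT-ND6 was therefore expressed per 1000 normalized counts of the 9 heavy-strand members together (mean ± SD, n = 2 unless stated). It was lowest in FADU hypoxia, at 3.23 ± 0.263, then in the mutant clones at 4.27 ± 0.888 and in BFTC909 hypoxia at 4.75 ± 0.257. The SD of the mutant is the spread between 2 clones of 1 library each and not between replicates. The clones, at 3.64 and 4.90, lay above both FADU hypoxia libraries and overlapped those of BFTC909 hypoxia, at 4.93 and 4.57. BFTC909 METTL4-si stood at 5.67 ± 0.317 and FADU METTL4-si at 8.70 ± 1.19. The single CRISPR control, also in hypoxia, stood at 10.4, next to BFTC909 normoxia at 11.1 ± 0.695. Above these came the overexpression table, with 13.2 ± 1.84 for RP11-390F4.3, 13.6 ± 0.485 for control and 14.1 ± 0.372 for METTL4-OE, which overlapped. FADU normoxia had 16.6 ± 0.0587, the highest.

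**Figure D3:**
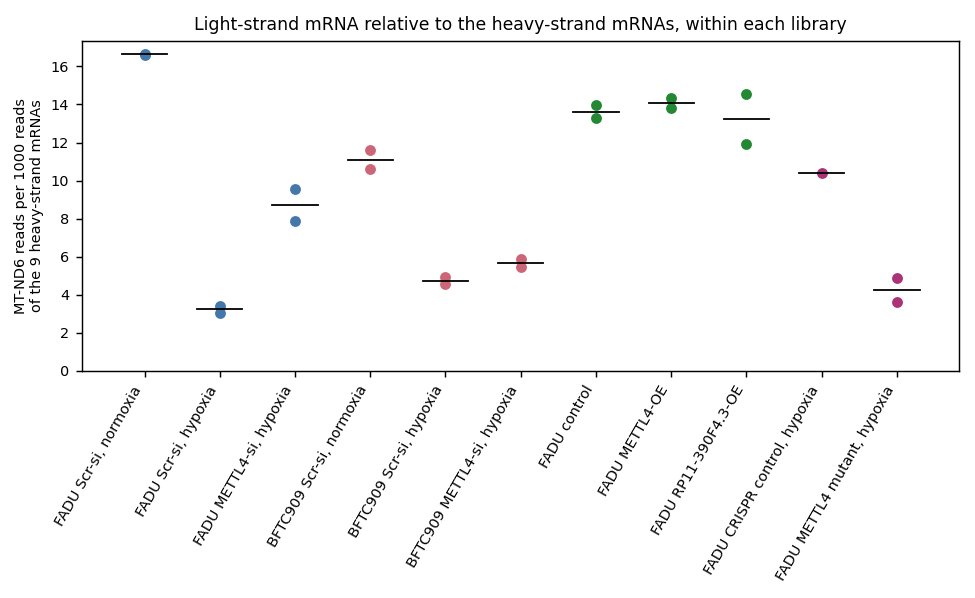
MT-ND6 per 1000 normalized counts of the heavy-strand members in each library, with 1 point a library and a line for the group mean. The FADU hypoxia libraries sit at 3.42 and 3.04 and the FADU normoxia libraries at 16.6 and 16.7.

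The 2 hypoxia controls of the FADU line were thus not alike. The Scr-si libraries held MT-ND6 at 3.42 and 3.04 per 1000 and the CRISPR control at 10.4. They come from separate tables, constructs and clones, and these cannot be told apart.

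Divided by gene length, as normalized counts per kilobase, the members could be set beside each other. In FADU normoxia the order was MT-CO2, MT-ATP6, MT-ND4, MT-CO1, MT-ND2, MT-ND1, MT-ND3, MT-CYB, MT-ND5 and MT-ND6. MT-CO2 led at 7973 ± 812 (SD, n = 2) and MT-ND6 closed at 1485 ± 138. Neighbours in that order differed by less than the larger of their SDs for MT-ATP6 and MT-ND4, MT-ND3 and MT-CYB, and MT-CYB and MT-ND5. The heavy-strand members spanned 2.68 and 2.82-fold from lowest to highest in the normoxia libraries and 5.81 and 5.28-fold in hypoxia. MT-ND6 stood at 31.0 and 31.8% of the heavy-strand median per kilobase in normoxia and 8.91 and 8.47% in hypoxia. Against MT-ND5, its tail-to-tail neighbour, it stood at 49.6 and 52.7% in normoxia, 8.91 and 8.47% in hypoxia and 25.2 and 21.3% with METTL4-si. In hypoxia MT-ND5 was itself the heavy-strand median gene. In BFTC909 its share of the heavy-strand median was 25.8 and 23.5% in normoxia and 11.6 and 10.8% in hypoxia. MT-CO1 took 16.6 and 17.7% of the normalized counts of mitochondrial mRNA in FADU normoxia and 24.3 and 24.6% in hypoxia. The strand setting of the read counting was not given in the sources used here. If strand was not used, reads from the heavy-strand precursor across MT-ND6 would count toward it.

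The heavy-strand members' differences in FADU hypoxia ran with their length, a feature the rule did not use. Over the 9 members, Pearson's correlation of the log2 difference with length was 0.806 and Spearman's 0.833. Longer members tended to be less lowered, though MT-ND5, the longest, had a lower log2 difference than MT-CO1 and MT-ND4. Over all 12 heavy-strand mRNAs the correlations were 0.770 and 0.762. With distance of the gene's start from MT-TF the Pearson correlation was 0.238. With percent G plus C it was 0.519, and 0.669 over all 12 heavy-strand mRNAs. With METTL4-si against Scr-si, which shares the hypoxia libraries, the correlations with length were -0.772 and -0.850. Over all 12 heavy-strand mRNAs Pearson's correlation there was -0.769 with length and -0.668 with percent G plus C. For METTL4-si in BFTC909 hypoxia these were -0.507 and -0.787. In BFTC909 hypoxia the correlation with the gene's start was 0.772 (Pearson) and 0.60 (Spearman), and that with length 0.342 (Pearson) and 0.50 (Spearman). Over all 12 heavy-strand mRNAs Spearman's correlation was 0.531 with start and 0.510 with length. With RP11-390F4.3 the Pearson correlation was 0.471 with length and -0.445 with start. These 9 points share libraries and a precursor, and no p is given. Among nuclear genes tested in FADU hypoxia, the median log2 difference was -0.21 for the 198 genes in the shortest of 4 classes of exonic length (quartiles -0.73 and 0.18), then -0.076, -0.14 and -0.032 in the longer classes, which did not follow the order of length. Whether library features tied to length had a part in the members' values was not tested.

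The 3 heavy-strand mRNAs outside the member list were also lower in FADU hypoxia. MT-ATP8, the second membrane subunit of ATP synthase, was 596 and 534 in normoxia and 112 and 115 in hypoxia (-2.30, SE 0.13, adjusted p = 1.77e-04). Its coding part overlaps MT-ATP6 by 46 bases (chrM:8527-8572), where a read cannot be given to 1 gene, and so its count is uncertain. The overlap, in capitals, lies within this stretch.
MT-ATP8/MT-ATP6 (chrM:8507-8592, heavy-strand mRNA sense, + strand): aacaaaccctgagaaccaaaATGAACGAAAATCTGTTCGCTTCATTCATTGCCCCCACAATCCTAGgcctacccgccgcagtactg
MT-CO3, of complex IV, had -0.96 (SE 0.14, adjusted p = 0.00465) and MT-ND4L, of complex I, -0.78 (SE 0.14, adjusted p = 0.00982).

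tRNA genes, whose mature products are short and poorly captured in such libraries, were called lower in FADU hypoxia in 10 of 11 tested (median -1.19 log2). Of all genes tested 12.5% were called lower there. MT-TF, the first transcript after the heavy-strand promoter, was 8.14 and 8.84 in normoxia and 1.35 and 1.14 in hypoxia (-2.08, SE 0.19, adjusted p = 0.00101). MT-TQ, from the light strand, was 16.2 and 12.8 in normoxia and 3.95 and 4.06 in hypoxia (-1.62, SE 0.14, adjusted p = 8.38e-04), and MT-TP, the light-strand tRNA nearest to its promoter, was 17.0 and 17.2 in normoxia and 12.4 and 15.2 in hypoxia (-0.29, SE 0.14, adjusted p = 0.182), the one not called. tRNA genes of both strands thus lay lower. With METTL4-si 10 of 11 were called higher than Scr-si (median 1.00), beside 15.2% of all genes tested. In BFTC909 hypoxia 8 of 9 were lower (median -0.67), beside 19.2% of all genes called lower. Among them was MT-TP (-0.53, SE 0.10, adjusted p = 0.00530), while the heavy-strand mRNAs there had a median of 0.11.

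With RP11-390F4.3 overexpression 2 of 9 tRNA genes were called higher and 3 lower, the shares over all genes being those given above. MT-TP was 13.8 and 18.7 in control and 47.0 and 46.8 with RP11-390F4.3 (1.49, SE 0.10, adjusted p = 6.79e-08), and MT-TE, which lies between MT-ND6 and MT-CYB on the light strand, was 3.29 and 5.77 in control and 10.6 and 10.1 with RP11-390F4.3 (1.08, SE 0.17, adjusted p = 1.33e-04). Both rose, while their neighbour MT-CYB, read from the other strand, was at -0.97. MT-TQ fell, from 14.5 and 16.9 to 7.57 and 4.54 (-1.27, SE 0.16, adjusted p = 2.19e-05), and so did the heavy-strand MT-TT, from 10.2 and 10.1 to 6.36 and 5.95 (-0.64, SE 0.11, adjusted p = 3.23e-04). Without knowledge of the strand setting, reads of MT-TE and of the heavy-strand precursor across it cannot be told apart. The ribosomal RNAs MT-RNR1 and MT-RNR2 are removed during library preparation and are not read as levels: MT-RNR1 was 179 and 0.893 and MT-RNR2 355 and 1.65 in FADU normoxia replicates 1 and 2.

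Copies of mitochondrial DNA in the nuclear genome can share reads with the members. The longest nuclear match of MT-CO1 was 98.6% identical over 1543 bases (chromosome 1), and that of MT-ND6 95.04% over 524 bases (chromosome 5). The copy of MT-ND6 on chromosome 5, MTND6P4, was 14.6 and 18.5 in FADU normoxia, 2.34 and 2.19 in hypoxia and 8.57 and 12.2 with METTL4-si, far below MT-ND6 and in the same order of groups. Of the 25 copies tested, 8 were called lower and none higher in FADU hypoxia, beside 12.5% and 12.4% of all genes. Reads of a copy and of its member cannot be told apart where the sequences are the same.

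Nuclear genes that make and keep mitochondrial RNA were followed as lists written with earlier results of these data known. Of 9 mtDNA transcription genes, 1 was higher and 1 lower in FADU hypoxia, beside 12.4% and 12.5% of all genes. POLRMT fell, from 27.8 and 25.9 to 18.6 and 17.6 (-0.54, SE 0.13, adjusted p = 0.0288), and TFB1M, a methyltransferase of the small ribosomal RNA, rose (0.60, SE 0.14, adjusted p = 0.0254). TFAM (-0.13, SE 0.11, adjusted p = 0.425), TFB2M (-0.26, SE 0.088, adjusted p = 0.0782) and TEFM (0.11, SE 0.14, adjusted p = 0.605) were not called. Of 18 genes of RNA processing and stability 3 were lower and none higher: ELAC2, which cuts tRNA 3′ ends (-0.52, SE 0.064, adjusted p = 0.00298), PNPT1, an exonuclease (-0.51, SE 0.11, adjusted p = 0.0177), and MTPAP, the poly(A) polymerase (-0.41, SE 0.081, adjusted p = 0.0144). LRPPRC was at -0.058 (SE 0.078, adjusted p = 0.629). The list medians were -0.13 and -0.27, beside -0.026 over all genes. Limma p values here are adjusted by Benjamini and Hochberg over all genes tested.

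With METTL4-si in FADU hypoxia, POLRMT was called higher, at 28.1 and 21.5 in replicates 1 and 2 (0.42, SE 0.13, adjusted p = 0.0478), the higher value being that of the library with raised markers of another cell type, and MTERF2 was higher too (0.42, SE 0.10, adjusted p = 0.0221), whereas the initiation factors TFAM (-0.60, SE 0.11, adjusted p = 0.00672) and TFB2M (-0.45, SE 0.088, adjusted p = 0.00945) fell. SLIRP fell (-0.52, SE 0.077, adjusted p = 0.00348), LRPPRC was not called (-0.24, SE 0.078, adjusted p = 0.0512), and TEFM was at -0.18 (SE 0.14, adjusted p = 0.354). In all 2 of 9 transcription genes were called higher and 2 lower, beside 15.2% and 16.8% of all genes. PPARGC1B, a coactivator of mitochondrial biogenesis, rose (1.42, SE 0.11, adjusted p = 3.76e-04) and had fallen in hypoxia (-0.90, SE 0.11, adjusted p = 0.00261). The hypoxia-induced BNIP3, a mitophagy receptor, was at 3.52 (SE 0.091, adjusted p = 2.00e-05) in hypoxia and -3.76 (SE 0.091, adjusted p = 1.74e-05) with METTL4-si.

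In BFTC909 hypoxia, where 19.2% of all genes tested were called lower, 4 of 9 transcription genes fell, namely TFB2M (-0.89, SE 0.089, adjusted p = 3.17e-04), POLRMT (-0.86, SE 0.11, adjusted p = 9.14e-04), TFAM (-0.83, SE 0.10, adjusted p = 7.52e-04) and MTERF3 (-0.39, SE 0.092, adjusted p = 0.0116), and so did 12 of 17 processing genes, led by PNPT1 (-0.94, SE 0.091, adjusted p = 2.70e-04), SLIRP (-0.89, SE 0.086, adjusted p = 2.67e-04) and ELAC2 (-0.75, SE 0.082, adjusted p = 4.60e-04). None of either list rose. The heavy-strand mRNAs of the same libraries differed little, with MT-CYB higher. TEFM was at -0.13 (SE 0.16, adjusted p = 0.540) and LRPPRC at -0.34 (SE 0.079, adjusted p = 0.0101). With METTL4-si, POLRMT (0.47, SE 0.11, adjusted p = 0.0166) and MTERF2 (0.62, SE 0.11, adjusted p = 0.00560) were called higher and TFB2M lower (-0.38, SE 0.089, adjusted p = 0.0168), with TFAM at -0.080 (SE 0.10, adjusted p = 0.592), TEFM at -0.14 (SE 0.16, adjusted p = 0.531) and LRPPRC at -0.25 (SE 0.079, adjusted p = 0.0436).

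In the overexpression table no transcription gene was called with METTL4-OE, where POLRMT was at 0.11 (SE 0.082, adjusted p = 0.326) and TFAM, higher by less than 1.3-fold, at 0.23 (SE 0.059, adjusted p = 0.00647). TFB2M was at 0.20 (SE 0.080, adjusted p = 0.0633), TEFM at 0.090 (SE 0.097, adjusted p = 0.498) and LRPPRC at -0.035 (SE 0.046, adjusted p = 0.584). With RP11-390F4.3, TFB1M rose (0.55, SE 0.091, adjusted p = 1.85e-04) and MTERF2 fell (-0.61, SE 0.093, adjusted p = 9.80e-05). TFB2M (-0.35, SE 0.080, adjusted p = 0.00258) and TEFM (-0.33, SE 0.097, adjusted p = 0.0105) were lower by less than 1.3-fold, TFAM was at -0.0049 (SE 0.059, adjusted p = 0.952), and LRPPRC at -0.17 (SE 0.046, adjusted p = 0.00740). POLRMT was at 0.38 (SE 0.082, adjusted p = 0.00173), also under 1.3-fold. In the mutant clones, with no test, the log2 ratios to the CRISPR control were -0.11 and 0.25 for POLRMT, 0.43 and 0.83 for TFAM, 0.25 and 0.63 for TFB2M, 0.12 and 0.19 for TEFM, and 0.10 and 0.11 for LRPPRC.

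Nuclear genes encode the other subunits of these complexes. In FADU hypoxia 5 of 37 nuclear complex I genes were called lower and 0 higher (median -0.29), with 1 of 9 of complex III, 1 of 10 of complex IV and 2 of 15 of ATP synthase lower, beside 12.5% of all genes called lower, so that these shares were near that over all genes. With METTL4-si, where the mitochondrial mRNAs were higher and 16.8% of all genes were called lower, 8 of 37 complex I genes were called lower and 1 higher (median -0.11), 4 of 9 of complex III lower, led by UQCRH (-0.87, SE 0.070, adjusted p = 4.63e-04), and 9 of 15 of ATP synthase lower, led by ATP5PB (-0.75, SE 0.075, adjusted p = 8.87e-04). In BFTC909 hypoxia 4 of 36 of complex I, 4 of 9 of complex III and 7 of 15 of ATP synthase were called lower, beside 19.2% of all genes, a share that the complex I genes did not reach.

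Nuclear genes with the pattern most like the heavy-strand members were ranked by the lowest of their 3 Pearson correlations with the members' mean log2 level, each over the 6 libraries of a table, among 9516 genes. They were UBE4A (0.856), TMEM115 (0.844), TPRN (0.837), PPCDC (0.830) and COQ4 (0.802). COQ4 is a protein of coenzyme Q synthesis and UBE4A a ubiquitin ligase. Libraries share groups and depth, so these values describe likeness in level and nothing more.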

How the data were processed

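RNA-seq of 21 libraries was analysed from 4 tables of TMM-normalized CPM. Total RNA was depleted of ribosomal RNA with a stranded kit and sequenced in pairs. Per the labels and the study's methods, the authors used Trim Galore for trimming, HISAT2 for alignment to hg19, HTSeq for counting and edgeR for normalization; versions, annotation and strand setting are not given in the sources used here. The deposited signal values are thus TMM-normalized counts of reads on genes, made by the authors table by table, and were compared within a table only. Files of the authors' own fold changes, F statistics and p-values were not used. Values were whole multiples of 1 read, within 0.02, in 100% of cases, so whole reads were recovered, and edgeR ran on them where groups had replicates. For the mutants 40.9% to 43.0% of each column stood in rows that name no gene and was left out.

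Symbols and positions came from the GRCh37 annotation. For each table of 6 libraries, limma 3.58.1 (R 4.3.3) was fitted to log2(value + 1) with an eBayes trend over genes that reached 1 in 2 or more libraries, all 3 groups sharing the spread, and edgeR 4.0.16 was the alternative. Fold changes are on the log2(value + 1) scale. Calls needed a change of 1.3-fold and an unadjusted p below 0.05, the thresholds of the study, which used edgeR. How many of all genes had groups without overlap is not given here, so a lack of overlap is a description only. Adjusted p values (Benjamini-Hochberg, over all genes tested) are given for genes outside the 10 members. The members and the gene lists (mtDNA transcription, RNA processing and stability, mtDNA replication, biogenesis, nuclear subunits of complexes I, III, IV and ATP synthase, hypoxia genes of mitochondria, markers of cell types) were chosen with earlier results of these data known. Named from each list were at most 3 genes with the largest change at an adjusted p under 0.05, besides POLRMT, TFAM, TEFM, TFB2M and LRPPRC. MTERF2, MTERF3, TFB1M, SLIRP and others beyond that rule were named after their values were seen. The mutant table, with 1 control, was given as ratios with no test. No 2 replicates were close enough to be 1 library deposited again (chi-square per degree of freedom 2.11 to 28.9). Alternatives were pseudocounts of 0.1 and 5, other filters and thresholds, an eBayes fit without trend, other scalings, a replicate block and leaving out libraries. The limma script was tested on simulated data. Shares of reads carry Wilson 95% intervals. Nuclear copies were searched with blastn, keeping matches of at least 150 bases.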

Additional observations from a re-analysis of the deposited data

Results flagged for a closer look

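All members were looked over, in hypoxia against normoxia and METTL4-si against Scr-si. Those below had groups that did not overlap in either line and lay in opposite directions. How many of all genes meet this was not counted, so nothing is read from their number. The difference between the lines was not tested. MT-CYB, the cytochrome b of complex III, was lower in hypoxia than in normoxia in FADU (-0.68 on the log2 scale) and higher in BFTC909 (0.51), a difference of -1.20. MT-CO2, of complex IV, had -0.63 in FADU and 0.15 in BFTC909, a difference of -0.79. For METTL4-si against Scr-si in hypoxia, MT-CO1 had 0.30 in FADU and -0.10 in BFTC909, a difference of 0.40, but the BFTC909 value had the other sign (0.0018) after rescaling to genes outside the mitochondrial genome, and neither value was called. In the BFTC909 libraries 4 of 9 epithelial markers were in the table, and line and table cannot be told apart.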

How the results depend on the processing

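Of 589 values of 42 results under other settings, 553 stayed within the spread between replicates, or for counts within 1.5 times. This count is no measure of robustness, since some settings cannot move a log2 difference. Among these are a fit without trend, with only the groups compared or without a library of the group not compared. Median centring likewise cannot move the heavy-strand median minus MT-ND6. Among differences of at least 1.3-fold as reported, 0 values changed sign. Where values moved, the cause was not tested. Rescaling libraries to genes outside the mitochondrial genome shifted the log2 difference of MT-ND6 by 0.15 for METTL4-si against Scr-si in FADU, by 0.16 for METTL4-si against normoxia in FADU and by 0.14 for mutant clone 1. It gave a heavy-strand median of 1.05 and MT-ND6 of 2.27 in the first, 0.38 and -0.53 in the second, and MT-ND6 of -1.16 and -1.15 in mutant clones 1 and 2. Centring on the median gene gave a heavy-strand median of 0.86 for METTL4-si against Scr-si in FADU, and MT-ND6 of -0.32 for RP11-390F4.3 against METTL4-OE. Without the libraries with raised markers the heavy-strand medians in FADU were -0.53 for hypoxia and 0.86 for METTL4-si. With all 12 heavy-strand mRNAs, an alternative chosen after seeing the data, they were -0.85 and 1.07, and 0.020 for BFTC909 hypoxia. At a 2-fold threshold the members called were 4 for FADU hypoxia, 5 for FADU METTL4-si, 1 for BFTC909 hypoxia, and 0 for METTL4-si against normoxia in either line and for the comparisons of the overexpression table. With only the 2 groups compared in the fit, 1 member was called for METTL4-si against normoxia in FADU.

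Leaving out 1 library at a time, the heavy-strand median ranged from -0.85 to -0.53 for FADU hypoxia, 0.86 to 0.96 for FADU METTL4-si, 0.058 to 0.33 for FADU METTL4-si against normoxia and -0.0029 to 0.21 for BFTC909 hypoxia. The heavy-strand median minus MT-ND6 ranged from 0.90 to 1.03 for BFTC909 METTL4-si against normoxia. Members called ranged from 2 to 5 for FADU METTL4-si against normoxia, 2 to 4 for BFTC909 hypoxia, 0 to 1 for BFTC909 METTL4-si, 0 to 1 for METTL4-OE, 4 to 8 for RP11-390F4.3 against control and 2 to 4 for RP11-390F4.3 against METTL4-OE. A lone library was then assumed to vary like the other groups.

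With the replicate number as a block, MT-ND6 in FADU hypoxia stayed at -2.81 and 7 members were called, with 9 for METTL4-si, and the block changed no other count of members called. The numbers do not pair the samples: the correlation of replicate differences was 0.648 between FADU normoxia and METTL4-si, whose first replicates both had raised markers, and between -0.065 and 0.15 between the other groups whose columns match the labels by name. No paired analysis was possible because, for RP11-390F4.3 overexpression, the 2 columns are numbered under a name that no label uses, which does not tie them to the labels' replicate numbers, and because the mutant table has 1 control library. With 2 libraries a group, the spread between libraries set the precision, and depth was not the limit for these abundant mRNAs.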

Other observations

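Genes for keeping mitochondrial DNA and for mitochondrial biogenesis were counted in the same fits (limma, calls by the same criterion, adjusted p over all genes). Of all genes tested, 12.4% were called higher and 12.5% lower in FADU hypoxia, and 19.5% and 19.2% in BFTC909 hypoxia. With METTL4-si the shares were 15.2% and 16.8% in FADU and 15.7% and 12.9% in BFTC909. They were 8.3% and 11.1% with METTL4-OE and 16.8% and 12.8% with RP11-390F4.3. Nothing is read from counts near these shares. Of the mtDNA replication list, 0 higher and 4 lower of 14 were called in FADU hypoxia, led by LIG3, a DNA ligase (-0.69, adjusted p = 0.00148), RNASEH1 (-0.53, adjusted p = 0.0119) and TWNK, the helicase (-0.50, adjusted p = 0.0133). In BFTC909 hypoxia 1 higher and 4 lower of 14 were called, with TWNK at -0.95 (adjusted p = 5.66e-04). METTL4-si gave 1 higher and 1 lower of 14 in FADU and 1 higher and 0 lower of 14 in BFTC909, METTL4-OE 0 higher and 0 lower of 14, and RP11-390F4.3 0 higher and 2 lower of 14. Of the biogenesis regulators, 0 higher and 3 lower of 6 were called in FADU hypoxia and 0 higher and 4 lower of 7 in BFTC909 hypoxia. ESRRA, a nuclear receptor of mitochondrial genes, fell in both lines (-0.67, adjusted p = 0.00713, in FADU and -0.70, adjusted p = 0.00141, in BFTC909), as did PPARGC1B (-0.58, adjusted p = 6.65e-04, in BFTC909). With RP11-390F4.3 0 higher and 2 lower of 6 were called, among them PPRC1 (-0.62, adjusted p = 1.06e-07).

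Genes of mitochondria that hypoxia induces were followed as a further list, the shares over all genes being those of the paragraph above. BNIP3 rose with METTL4-OE (2.96, adjusted p = 3.34e-10) and with RP11-390F4.3 (2.84, adjusted p = 3.01e-10), both in normoxia, and PDK1, which restrains pyruvate entry into mitochondria, rose too (1.42, adjusted p = 9.39e-11, and 1.71, adjusted p = 9.63e-12). MT-ND6 in the same comparisons was at -0.13 and -0.36. The list gave 3 higher and 0 lower of 9 in FADU hypoxia, 0 higher and 4 lower of 9 with METTL4-si in FADU, 5 higher and 1 lower of 9 in BFTC909 hypoxia, 0 higher and 4 lower of 9 with METTL4-si in BFTC909, 3 higher and 0 lower of 8 with METTL4-OE and 4 higher and 0 lower of 8 with RP11-390F4.3. The nuclear respiratory subunits were counted for RP11-390F4.3 too: complex I gave 0 higher and 2 lower of 37, complex III 0 higher and 0 lower of 9, complex IV 0 higher and 1 lower of 10 and ATP synthase 1 higher and 0 lower of 15.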
